A study of Mus musculus with 6 samples.

Results

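The mitochondrial ribosome (mitoribosome) is built from RNAs made inside the organelle and from proteins encoded in the nucleus, which are made in the cytosol and imported. It translates the few mRNAs of mitochondrial DNA, all of which code for subunits of the respiratory chain and of ATP synthase. Its small subunit reads the mRNA, and its large subunit joins the amino acids and anchors the ribosome at the inner membrane. Mrpl and Mrps genes, described here, code for most of its proteins. They were taken as the tested entries of the authors' expression table whose RefSeq identifiers map to exactly 1 mouse symbol that starts with Mrpl or Mrps and a digit. This gave 76 genes among 15387 tested entries, 48 named for the large subunit and 28 for the small subunit.

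RNA came from whole hearts of C57BL/6 mouse embryos at E10.5, 3 mutant and 3 control hearts. Mutant hearts were Nkx2-5Cre/+,Casz1f/f: both copies of Casz1, a zinc finger transcription factor gene, were floxed, and 1 copy of Nkx2-5, a cardiac homeobox gene, carried Cre recombinase. Control hearts were Nkx2-5+/+,Casz1f/+, with 1 floxed Casz1 copy and no Cre. Every heart thus carried at least 1 floxed Casz1 allele. Only the mutants had Cre and a modified Nkx2-5 allele, so effects of the Casz1 deletion and of the Nkx2-5 allele cannot be told apart. Cre acts where Nkx2-5 is or was active, and cells of the heart outside that lineage keep Casz1. The comparison asks which genes differ in the heart when Casz1 is mutated.

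The authors' table holds 1 FPKM value per genotype (fragments mapped to a gene, scaled to transcript length and library size), with no value per heart, so neither library depth nor heart-to-heart spread can be given. Each FPKM, p and q given below comes from the authors' deposited table. A log2 fold change is mutant over control, and its standard error (SE) and 95% interval are those implied by the deposited test statistic. Over all tested entries 65 passed the authors' q under 0.05 (0.422%), 47 higher and 18 lower in mutant hearts, and the median log2 fold change was -0.02. Casz1 itself read 4.68 FPKM in mutant and 6.61 FPKM in control hearts (log2 -0.50, SE 0.306, q = 1.00 in the authors' Cuffdiff test). Nkx2-5 read 82.9 FPKM in mutant and 143.0 FPKM in control hearts (log2 -0.79, SE 0.295, q = 0.536 in the same test). All 9 cardiomyocyte markers looked up were detected in both genotypes. Ttn, the titin gene, was the lowest, at 8.59 FPKM in mutant and 10.7 FPKM in control hearts. Myl7, an atrial myosin light chain gene, was the highest in mutant hearts, at 7496 FPKM against 5080 FPKM in control hearts. Myl2, another myosin light chain gene, was the highest in control hearts, at 5549 FPKM against 3942 FPKM in mutant hearts.

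All 76 genes were detected in both genotypes, and no filter on low values removed any of them. RefSeq's gene table lists 78 protein-coding Mrpl and Mrps genes. The other two, Mrpl53 and Mrps6, share an entry with a neighbouring gene and were therefore not members. The entry that joins Mrps6 with Slc5a3 read 73.5 FPKM in mutant and 66.7 FPKM in control hearts, and the entry that joins Mrpl53 with Ccdc142 read 93.2 and 92.5 FPKM in mutant and control hearts. Each of the 76 genes had a single tested entry. Genes of the family lay on 17 chromosomes, with 11 of them on chromosome 11 and 8 on chromosome 17.

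Levels spread widely within the family but hardly between the genotypes. In mutant hearts the FPKM of single genes ranged from 8.36 to 263.2 with a median of 47.2, and in control hearts from 7.92 to 245.0 with a median of 46.5. Large-subunit genes had a median of 47.4 FPKM in mutant and 46.5 FPKM in control hearts. Small-subunit genes had a median of 47.2 FPKM in mutant and 46.5 FPKM in control hearts. The median levels of the subunits were therefore close to equal, with a ratio of large to small of 1.00 in mutant and 0.998 in control hearts. Summed over genes, the large subunit came to 2991 FPKM in mutant and 2955 FPKM in control hearts, and the small subunit to 1571 FPKM in mutant and 1524 FPKM in control hearts. The ratio of these sums was 1.90 in mutant and 1.94 in control hearts.

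**Figure D1:**
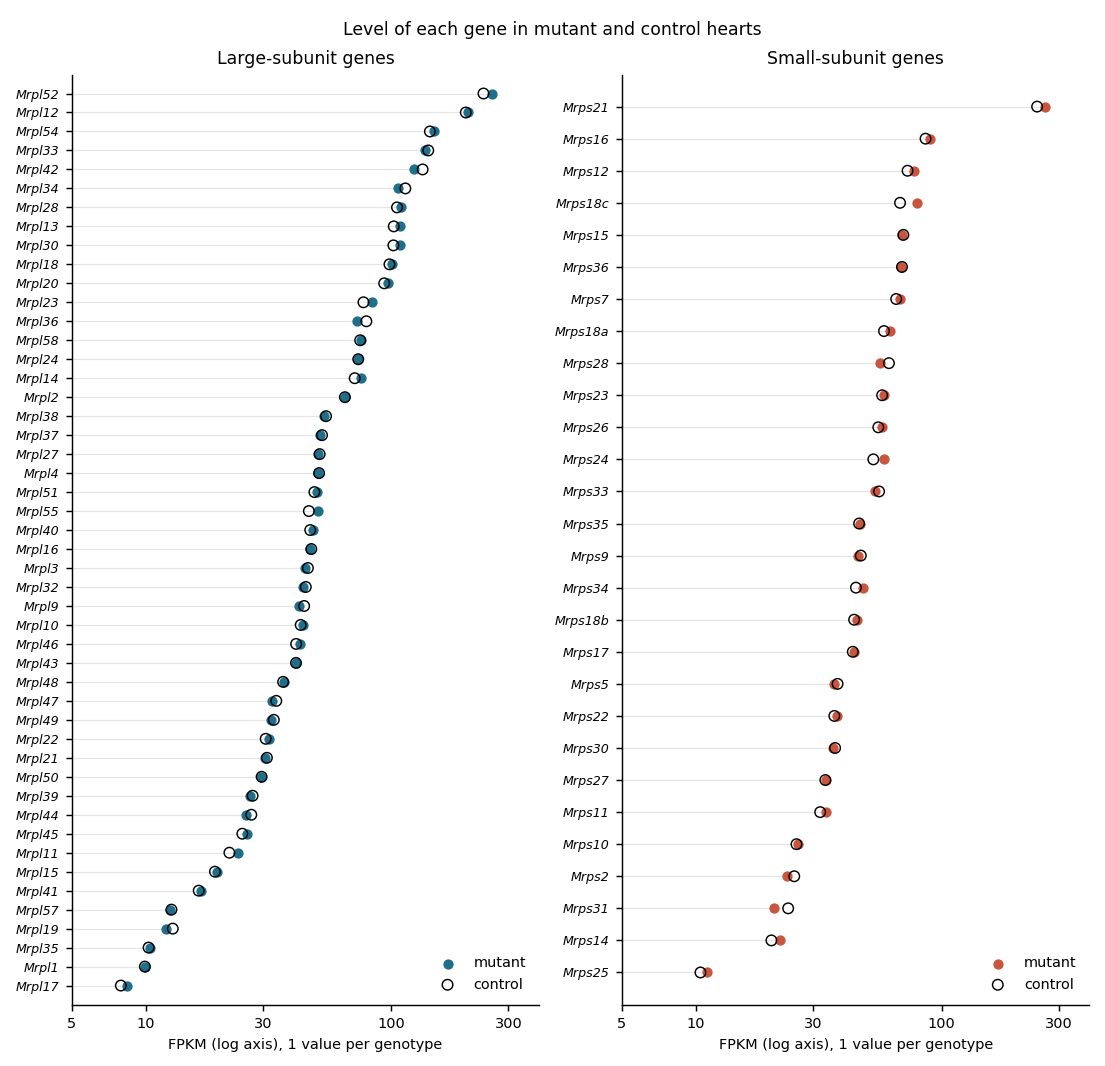
FPKM of each gene on a log axis, large-subunit genes on the left and small-subunit genes on the right, ordered by mean level. Filled points are mutant hearts and open circles control hearts, 1 pooled value each without an error bar. The points of a gene lie close together while genes span from 7.92 to 263.2 FPKM.

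Mrps21, which codes for a homologue of bacterial protein S21, was the most abundant of the small-subunit genes, at 263.2 FPKM in mutant and 245.0 FPKM in control hearts. By the mean of both genotypes, the next highest in that subunit were Mrps16 and Mrps12. Mrps16 read 89.8 FPKM in mutant and 86.1 FPKM in control hearts. Mrps12, whose bacterial homologue S12 sits at the decoding centre and affects the accuracy of translation, read 77.0 FPKM in mutant and 72.7 FPKM in control hearts. Mrps21 thus stood apart from the rest of its subunit in both genotypes. By the same mean, the lowest were Mrps25, at 11.1 FPKM in mutant and 10.4 FPKM in control hearts, and Mrps14, at 21.9 FPKM in mutant and 20.3 FPKM in control hearts.

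In the large subunit Mrpl52 was highest, at 256.7 FPKM in mutant and 237.3 FPKM in control hearts. Mrpl12, the homologue of the bacterial stalk protein that helps recruit translation factors, followed with 204.5 FPKM in mutant and 201.0 FPKM in control hearts. Mrpl54 read 149.3 FPKM in mutant and 143.6 FPKM in control hearts. Mrpl17 was the lowest gene of the family, at 8.36 FPKM in mutant and 7.92 FPKM in control hearts. Mrpl1 was next, at 9.96 FPKM in mutant and 9.92 FPKM in control hearts.

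Genes with shorter annotated transcripts had higher levels. Across the 76 genes the rank correlation between mean FPKM and the length of the matching GENCODE transcripts was -0.64 (Spearman's rho, a description across genes that share libraries and are no replicates). The 17 genes with transcripts under 800 nt had a median of 79.8 FPKM in mutant and 74.7 FPKM in control hearts. For the 29 genes with transcripts over 1500 nt the median was 32.3 FPKM in mutant and 33.2 FPKM in control hearts. FPKM is already divided by length by the authors' tool. The part of transcript length in the differences between genes was not tested.

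The comparison of genotypes found no called gene in the family. In the authors' Cuffdiff test 0 of 48 large-subunit and 0 of 28 small-subunit genes passed q under 0.05, against 0.422% of all tested entries. At an unadjusted p under 0.05 the count was 0 of 76 as well, against 3.17% of all tested entries. Of the 8426 tested entries with at least 5 FPKM in both genotypes, as all members have, 11 passed q under 0.05. In the same test 93 of those 8426 had an unadjusted p under 0.05, so neither count of 0 sets the family apart. The lowest unadjusted p of any member was 0.455, and every member had q = 1.00. With 76 genes a share of 0.422% amounts to less than 1 gene, so the count of 0 is near the background.

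The differences were small in size. Log2 fold changes of the 76 genes ran from -0.19 to 0.24, and each was smaller than its own SE, which had a median of 0.297. The same held for 8018 of the 8426 tested entries with at least 5 FPKM in both genotypes. A change below its SE is therefore not particular to the family. A log2 fold change within 0.1 of 0 was found for 64 of the 76 genes (84.2%), against 63.7% of the 8426 tested entries with at least 5 FPKM in both genotypes, a level that every member reached. All 76 lay within 0.25 of 0, against 90.9% of those entries. The SD of the log2 fold changes was 0.0706 over the members and 0.198 over those entries. These are descriptions of pooled values and carry no test over hearts.

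**Figure D2:**
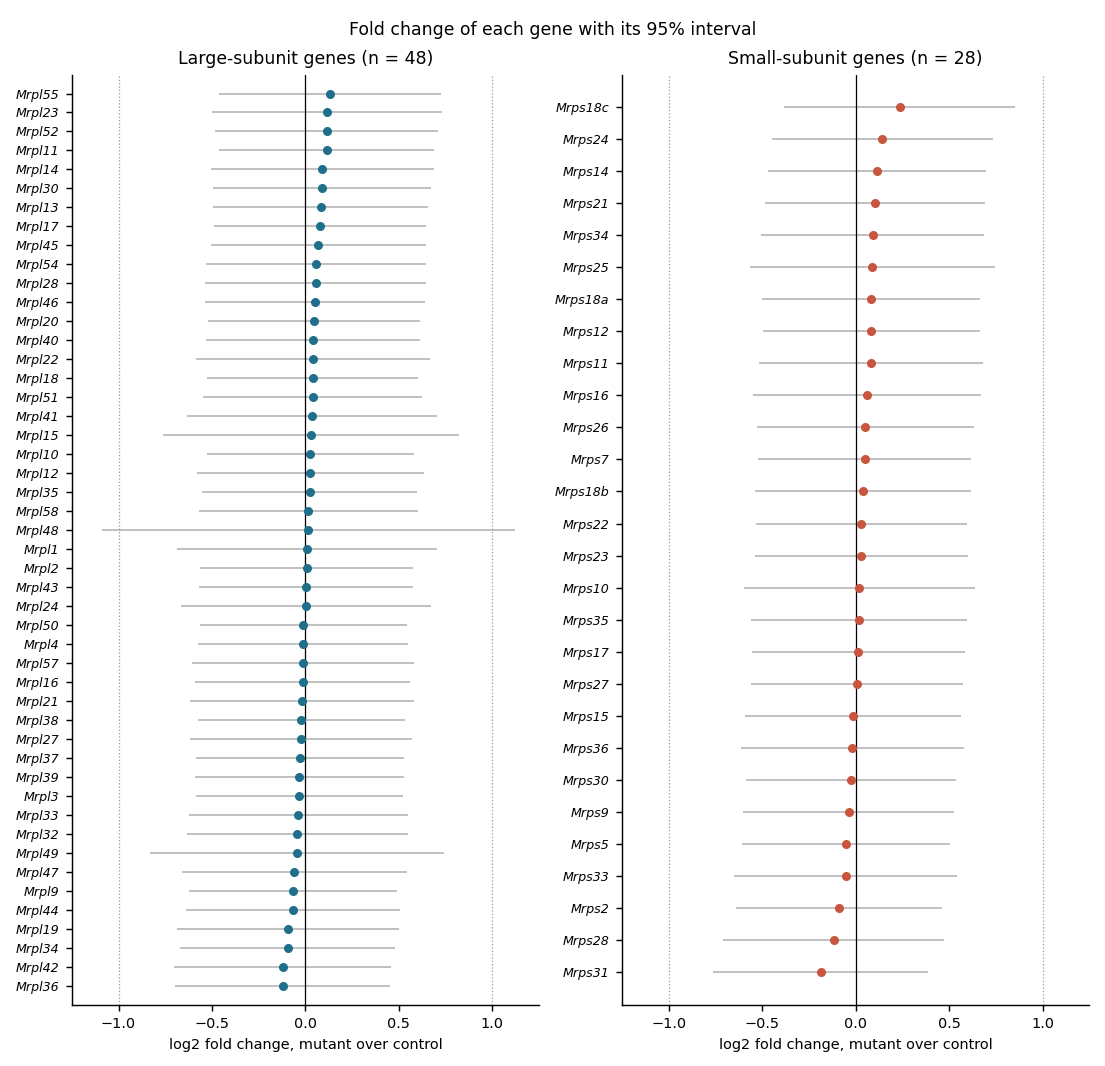
Log2 fold change (mutant over control) of each gene as a point, with the 95% interval implied by the authors' test statistic as a line. Large-subunit genes are on the left and small-subunit genes on the right, and dotted lines mark a log2 of -1 and 1. Points run from -0.19 to 0.24, and every interval crosses 0.

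The intervals limit how large a change could have gone unseen. For 75 of the 76 genes the 95% interval lay between a log2 of -1 and 1, so a doubling or a loss to that extent fell outside it. The exception was Mrpl48, whose interval ran from -1.09 to 1.12. Mrpl48 has a pseudogene copy and lies in a merged locus with Rab6a, and its SE of 0.564 was the largest of the family. Smaller changes would not have been called. Among the 8426 entries of that level the smallest change that passed the authors' test had a log2 size of 1.20. A p that misses the threshold does not show that the levels were equal.

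Large-subunit genes had a median log2 fold change of 0.01, with 28 above and 20 below 0. Small-subunit genes had a median of 0.03, with 19 above and 9 below 0. Over the 15301 tested entries above 0 FPKM in both genotypes, 45.3% had a log2 fold change above 0, against 61.8% of the 76 genes. The side of 0 depended on the scaling, which shifts every gene by the same amount. With both genotypes scaled to the same FPKM sum, 34 of the 76 genes (44.7%) lay above 0, against 37.2% of those entries, and the medians were -0.01 and -0.05. With fold changes centred on the median of those entries, 52 of the 76 genes (68.4%) lay above 0, against 7650 of 15301, and the medians were 0.04 and 0.00. The family's median thus lay 0.04 above that of the tested entries under each scaling. This distance is given without a test, and the SE of a single gene does not measure its uncertainty.

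**Figure D3:**
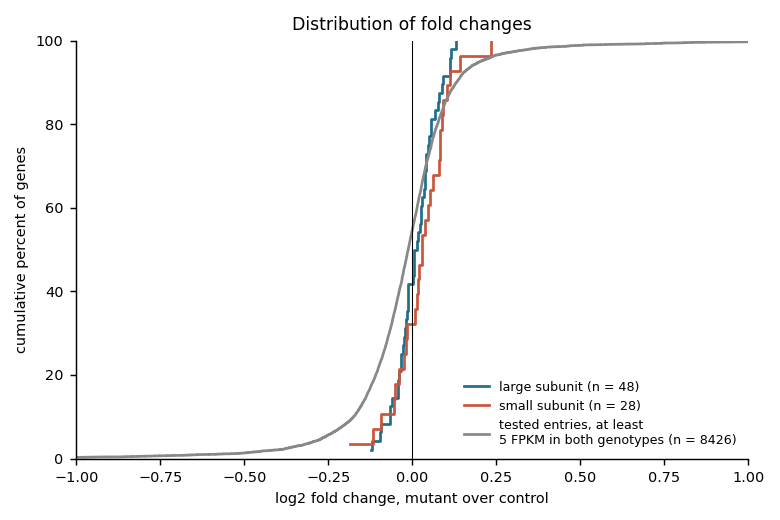
Cumulative percent of genes against log2 fold change (mutant over control) for 48 large-subunit genes, 28 small-subunit genes and 8426 tested entries with at least 5 FPKM in both genotypes. The curves of both subunits climb more steeply around 0 than the grey curve, with medians of 0.01 and 0.03 against -0.01, and with scaling to the same FPKM sum the large-subunit median is -0.02 and the small-subunit median 0.00.

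Among small-subunit genes the highest ratio belonged to Mrps18c. It codes for the mitochondrial counterpart of bacterial protein S18 and spans chromosome 5 from 100798759 to 100804467 (mm10). Mrps18c read 79.8 FPKM in mutant and 67.8 FPKM in control hearts, a 1.18-fold level (log2 0.24, SE 0.315, 95% interval -0.38 to 0.85). Mrps24, a homologue of bacterial S3, followed at 58.2 FPKM in mutant and 52.8 FPKM in control hearts (log2 0.14, SE 0.301). Mrps14 and Mrps21, with log2 fold changes of 0.11 and 0.10, completed the 4 highest ratios. None of these had an interval clear of 0.

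The lowest ratio of the family was that of Mrps31, which spans chromosome 8 from 22410449 to 22429669 and codes for a protein found in mitochondrial and not in bacterial ribosomes. Mrps31 read 20.9 FPKM in mutant and 23.7 FPKM in control hearts (log2 -0.19, SE 0.293, 95% interval -0.76 to 0.39). Mrps28 read 56.3 FPKM in mutant and 61.1 FPKM in control hearts (log2 -0.12). Mrps2, the homologue of bacterial S2, read 23.6 FPKM in mutant and 25.1 FPKM in control hearts (log2 -0.09). Mrps33 was at a log2 of -0.05, and an annotated pseudogene copy of it may share reads.

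In the large subunit the highest ratio was that of Mrpl55. Mrpl55, on chromosome 11 from 59202486 to 59206138, read 50.5 FPKM in mutant and 46.2 FPKM in control hearts (log2 0.13, SE 0.304). Mrpl23, a protein of the rim of the exit tunnel, read 83.5 FPKM in mutant and 77.0 FPKM in control hearts (log2 0.12), and it too has a pseudogene copy. Mrpl52 and Mrpl11, a homologue of the bacterial stalk-base protein L11, both had a log2 of 0.11. The spread of the large subunit was narrower than that of the small subunit, with an SD of log2 fold changes of 0.0612 against 0.0847, and this difference was not tested.

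The lowest ratios of the large subunit were those of Mrpl36 and Mrpl42. Mrpl36 read 72.7 FPKM in mutant and 79.1 FPKM in control hearts (log2 -0.12, SE 0.294). Mrpl42 read 123.3 FPKM in mutant and 134.1 FPKM in control hearts (log2 -0.12, SE 0.296). Mrpl34 read 106.8 FPKM in mutant and 114.1 FPKM in control hearts (log2 -0.09). Mrpl19 was at a log2 of -0.09 and shares its locus with Gcfc2 in the table. All 4 of these ratios stood below 1 by less than their SE.

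Several members have been linked to cardiomyopathy in people, and 3 of them were looked up for that reason after the values had been seen. Mrpl3 read 44.7 FPKM in mutant and 45.7 FPKM in control hearts. Mrpl44, which carries a fold related to ribonuclease III, read 25.7 FPKM in mutant and 26.9 FPKM in control hearts. Mrps22 read 37.4 FPKM in mutant and 36.6 FPKM in control hearts. Their log2 fold changes were -0.03, -0.07 and 0.03, each smaller than its SE.

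A symbol does not always give the place of a protein in the ribosome. The 3 paralogues of bacterial S18 are used in different places: Mrps18c takes the S18 position, Mrps18b a separate position in the small subunit, and Mrps18a sits in the large subunit. Mrps18b read 45.3 FPKM in mutant and 44.1 FPKM in control hearts (log2 0.04). Mrps18a read 61.8 FPKM in mutant and 58.3 FPKM in control hearts (log2 0.08). Mrps30 also belongs to the large subunit and read 36.2 FPKM in mutant and 36.9 FPKM in control hearts (log2 -0.02). Mrps36 is now known as a part of the oxoglutarate dehydrogenase complex of the citric acid cycle. It read 68.1 FPKM in mutant and 69.0 FPKM in control hearts, and 3 pseudogene copies may share its reads. Placing these genes by structure gave 50 large-subunit genes with a median log2 of 0.01 and 25 small-subunit genes with a median of 0.03.

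Mitoribosomal proteins fall into homologues of bacterial ribosomal proteins and proteins added during the evolution of mitochondria. Mrps18a, Mrps18b and Mrps36 were counted in neither class here. The 45 homologues had a median level of 50.4 FPKM in mutant and 50.8 FPKM in control hearts and a median log2 fold change of 0.02. The 28 proteins specific to mitochondria had a median of 41.7 FPKM in mutant and 40.9 FPKM in control hearts and a median log2 fold change of 0.02. None of either class was called in the authors' Cuffdiff test, and none had an unadjusted p under 0.05.

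The mutants carry a modified Nkx2-5 allele on chromosome 17, and Mrpl28 and Mrps34 lie within 5 Mb of that locus. Mrpl28, at a distance of 0.712 Mb, read 109.6 FPKM in mutant and 105.5 FPKM in control hearts (log2 0.06, SE 0.302). Mrps34, at 1.94 Mb, read 47.7 FPKM in mutant and 44.8 FPKM in control hearts (log2 0.09, SE 0.305). No member lay within 5 Mb of Casz1 on chromosome 4, and the nearest, Mrpl20, was 6.85 Mb away with a log2 of 0.05.

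Many of the genes start close to a neighbour on the opposite strand. In RefSeq's promoter windows (build GRCm38.p6, the same assembly as mm10), 67 of the 76 genes had an entry. For 23 of these 67 (34.3%) the start site faced away from that of another gene within 500 bp, against 10.9% of all 27025 genes with a window and 19.8% of the 6565 such genes at 5 FPKM or more in mutant and control hearts. Mrpl46 and Mrps11 form such a pair between themselves, 1 gene for each subunit, with 42 bp between their start sites on chromosome 7. Mrpl46 read 42.4 FPKM in mutant and 41.0 FPKM in control hearts, and Mrps11 read 33.9 FPKM in mutant and 32.0 FPKM in control hearts. Their log2 fold changes were 0.05 and 0.08.

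Other partners include genes of mitochondria and of protein synthesis and turnover. Sars2, the mitochondrial seryl-tRNA synthetase gene, starts 147 bp from Mrps12 and read 13.8 FPKM in mutant and 14.8 FPKM in control hearts. Twnk, the mitochondrial DNA helicase gene, starts 116 bp from Mrpl43 and read 10.46 FPKM in mutant and 10.96 FPKM in control hearts. Ndufb5, of respiratory complex I, starts 308 bp from Mrpl47 and read 165.7 FPKM in mutant and 164.5 FPKM in control hearts. Hira, a histone chaperone gene, starts 113 bp from Mrpl40 and read 14.4 FPKM in mutant and 14.5 FPKM in control hearts. Fau, which codes for a fusion with a protein of the cytosolic small subunit, starts 192 bp from Mrpl49 and read 772.4 FPKM in mutant and 673.2 FPKM in control hearts. The 22 partners tested with at least 1 FPKM in both genotypes include Mrpl46 and Mrps11. Of these 22, 0 were called in the authors' Cuffdiff test, against 0.422% of all tested entries. Their log2 fold changes ran from -0.14 to 0.20. Levels within a pair ranged from close, as for Mrps27 and Ptcd2 with 33.8 and 27.4 FPKM in mutant hearts, to far apart, as for Mrpl49 and Fau with 32.3 and 772.4 FPKM in mutant hearts.

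The promoter windows (250 bases before and 50 after the start site, 300 bases in all) were searched on both strands for 6 short motifs, counting each motif separately where matches overlap. The ETS motif CCGGAAG was present for 25 of 67 genes (37.3%), against 9.93% of all genes and 23.4% of genes with at least 5 FPKM. The NRF1 motif was present for 13 of 67 (19.4%), against 5.19% of all genes and 13.5% of genes with at least 5 FPKM. The YY1 motif was present for 5 of 67 (7.46%), against 0.755% of all genes and 2.36% of genes with at least 5 FPKM. At least 1 of these 3 was present for 37 of 67 genes (55.2%), against 14.5% of all genes and 35.2% of genes with at least 5 FPKM. The Sp1 motif GGGCGG was present for 49.3% of the family, against 38.2% of all genes and 72.9% of genes with at least 5 FPKM. The E-box CACGTG and the TATA motif TATAAA were each present for 5 of 67 genes (7.46%), against 8.09% and 15.7% of all genes and 12.5% and 7.92% of genes with at least 5 FPKM. The NRF1 and YY1 motifs, searched as 10 and 11 letters, are given by name, and matches to them stand in capitals in the windows printed next. A match is a run of letters and not a shown binding site. Median log2 fold changes were 0.03 for members with the ETS motif and 0.01 for those without it.

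**Figure D4:**
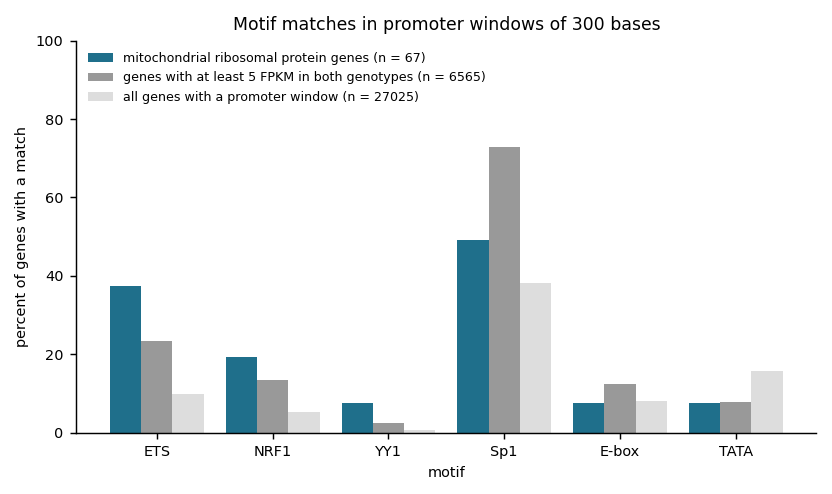
Percent of genes whose 300-base promoter window holds each motif on either strand, for 67 mitochondrial ribosomal protein genes, 6565 genes of 5 FPKM or more in mutant and control hearts and 27025 genes in all. The ETS bar reaches 37.3% for the family, against 23.4% and 9.93%, and the Sp1 bar 49.3%, against 72.9% and 38.2%.

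Windows of 4 genes are shown to give these motifs in place, each written 5′ to 3′ on the strand of the gene from RefSeq (GRCm38.p6), with matches to the ETS, NRF1 and YY1 motifs on either strand in capitals. Mrps11 is shown for the start region that it shares with Mrpl46, Mrps21 for the highest level, Mrps18c for the highest ratio and Mrps12 for the start region near Sars2. The windows are chr7:78782881-78783180 on the plus strand for Mrps11, chr3:95871465-95871764 on the minus strand for Mrps21, chr5:100798509-100798808 on the plus strand for Mrps18c and chr7:28741772-28742071 on the minus strand for Mrps12.
Mrps11: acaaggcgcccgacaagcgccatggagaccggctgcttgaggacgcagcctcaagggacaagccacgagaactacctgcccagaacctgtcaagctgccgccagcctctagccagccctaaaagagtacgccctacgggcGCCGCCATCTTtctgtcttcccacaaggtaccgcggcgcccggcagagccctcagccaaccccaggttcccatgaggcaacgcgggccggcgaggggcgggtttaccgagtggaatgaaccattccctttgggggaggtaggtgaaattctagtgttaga
Mrps21: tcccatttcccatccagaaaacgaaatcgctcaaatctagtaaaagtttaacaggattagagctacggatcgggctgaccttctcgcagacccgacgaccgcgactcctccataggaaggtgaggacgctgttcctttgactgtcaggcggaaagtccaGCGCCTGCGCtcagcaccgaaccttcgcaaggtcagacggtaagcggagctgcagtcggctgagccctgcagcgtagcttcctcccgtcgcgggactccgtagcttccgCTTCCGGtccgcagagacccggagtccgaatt
Mrps18c: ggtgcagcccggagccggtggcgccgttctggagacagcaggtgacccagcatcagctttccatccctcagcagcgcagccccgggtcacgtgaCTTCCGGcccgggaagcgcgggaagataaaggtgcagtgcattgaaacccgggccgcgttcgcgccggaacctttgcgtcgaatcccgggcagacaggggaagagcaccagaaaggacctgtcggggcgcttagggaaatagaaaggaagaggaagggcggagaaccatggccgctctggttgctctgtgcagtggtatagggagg
Mrps12: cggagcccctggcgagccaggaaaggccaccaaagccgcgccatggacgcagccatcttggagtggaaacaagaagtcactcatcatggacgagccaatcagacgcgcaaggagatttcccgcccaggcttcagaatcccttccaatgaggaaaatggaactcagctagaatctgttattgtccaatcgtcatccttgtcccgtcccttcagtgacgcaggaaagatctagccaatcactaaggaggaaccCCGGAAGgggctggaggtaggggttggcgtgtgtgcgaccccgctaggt
Positions give the first base of a match from the start site, taken as 0. The YY1 match in the Mrps11 window begins at position -110 on the opposite strand. Mrps21 holds an NRF1 match that begins at -91 and an ETS match at 18, both on the opposite strand. Mrps18c holds an ETS match at -156 on the opposite strand, and Mrps12 an ETS match at 1 on the strand of the gene. The window of Mrps31, with the lowest ratio of the family, held none of these 3 motifs. That is common, as only 37 of the 67 genes held at least 1 of them. The Mrps31 window is set on a start site at 22411340, which lies inside the span given above.

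Genes of 5 mitoribosomal proteins that do not carry an Mrp name were all tested, and none was called. With 0.422% of all tested entries called, a count of 0 in this list or a list below is near the background. Chchd1 read 152.1 FPKM in mutant and 146.6 FPKM in control hearts, and Aurkaip1 58.9 FPKM in mutant and 56.3 FPKM in control hearts. Dap3, a GTP-binding protein of the small subunit, read 19.4 FPKM in mutant and 20.2 FPKM in control hearts, and Ptcd3, a pentatricopeptide protein of the small subunit, 43.3 FPKM in mutant and 44.7 FPKM in control hearts. Gadd45gip1, of the large subunit, read 50.7 FPKM in mutant and 50.1 FPKM in control hearts. Log2 fold changes of the 5 genes ran from -0.05 to 0.07. In the authors' Cuffdiff test 0 passed q under 0.05, as did 0 at the same limit on the unadjusted p.

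Factors that assemble the mitoribosome and modify its RNA were not called either. Of 27 genes on that list 26 were tested, 0 passed the authors' Cuffdiff test in either direction, 0 had an unadjusted p under 0.05, and the median log2 fold change was -0.01. Grsf1, an RNA-binding protein of mitochondrial RNA granules, read 50.4 FPKM in mutant and 50.1 FPKM in control hearts, and Rbfa, a maturation factor of the small subunit, 34.02 FPKM in mutant and 33.25 FPKM in control hearts. The widest differences were those of Nsun4, an rRNA methyltransferase (log2 -0.26, SE 0.310), and Mettl17 (log2 -0.22, SE 0.307). Tfb1m, which methylates the RNA of the small subunit, has a failed test in the table.

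Translation factors were not called either. Of 18 genes 16 were tested, 0 passed in either direction, 0 had an unadjusted p under 0.05 in the authors' Cuffdiff test, and the median log2 fold change was -0.06. Slirp, the RNA-binding partner of Lrpprc, read 157.8 FPKM in mutant and 148.8 FPKM in control hearts, and Tufm, the mitochondrial elongation factor Tu, 84.9 FPKM in mutant and 89.4 FPKM in control hearts. The widest differences were those of Gfm1, an elongation factor G (log2 -0.21, SE 0.304), and Mtfmt, which formylates the initiator tRNA (log2 -0.19, SE 0.349).

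Mitochondrial tRNA synthetases had the lowest median of these lists. Of 17 genes, all tested, 0 passed in either direction and 0 had an unadjusted p under 0.05 in the authors' Cuffdiff test. The median log2 fold change was -0.10, against -0.02 over all tested entries, and 4 of 17 lay above 0. Lars2, for leucine, read 83.3 FPKM in mutant and 87.9 FPKM in control hearts, and Iars2, for isoleucine, 29.3 FPKM in mutant and 32.7 FPKM in control hearts. Fars2, for phenylalanine, had a log2 of -0.17 (SE 0.332). Mrpl and Mrps genes lay at medians of 0.01 and 0.03 in the same comparison, and the difference between the lists was not tested.

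**Figure D5:**
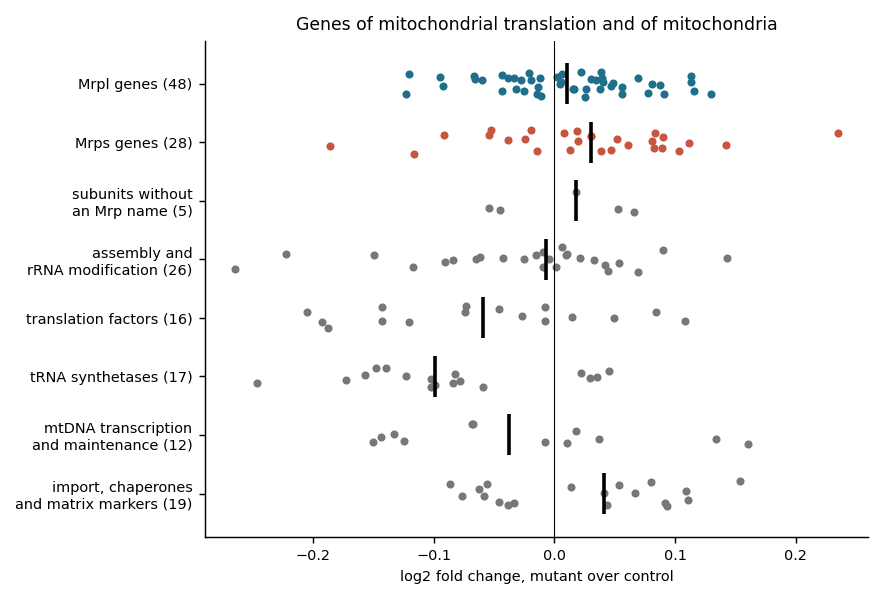
Log2 fold change (mutant over control) of each tested gene in the large-subunit and small-subunit families and in 6 other mitochondrial lists, with the number of genes in brackets. Points are genes, spread up and down for display, and black bars mark medians, which run from -0.10 for tRNA synthetases to 0.04 for import, chaperones and matrix markers.

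Markers of some cell types were called between the genotypes. The 0 calls among the 76 members of the family are near the background share of 0.422% of all tested entries. Of 6 foregut epithelial markers 5 passed the authors' test, all higher, and their summed level was 16.5 FPKM in mutant and 3.45 FPKM in control hearts. Of 5 smooth muscle markers 2 passed, Actg2 and Lmod1, both higher, and the list summed to 885.4 FPKM in mutant and 470.7 FPKM in control hearts. Most of that sum was Tagln, at 766.5 FPKM in mutant and 333.3 FPKM in control hearts, which did not pass (q = 0.411 in the authors' Cuffdiff test). Cnn1, which did not pass either, read 96.0 FPKM in mutant and 131.6 FPKM in control hearts. Of 2 tested macrophage markers 1 passed, Lyz2, lower, and the list summed to 2.88 FPKM in mutant and 18.04 FPKM in control hearts. Most of that sum was Lyz2, at 1.91 FPKM in mutant and 16.85 FPKM in control hearts. Csf1r, which did not pass, read 0.969 FPKM in mutant and 1.19 FPKM in control hearts (log2 -0.30). Of 9 cardiomyocyte markers Pln alone passed, lower, while 7 lay below 0 and the median log2 fold change was -0.21. The list summed to 16373 FPKM in mutant and 15947 FPKM in control hearts. Myl7 (log2 0.56) had the largest share of it in mutant hearts, and Myl2 (log2 -0.49) in control hearts. Neither Myl7 nor Myl2 was called. Endothelial, epicardial, erythroid and neuronal markers gave 0 calls among 5, 4, 3 and 3 tested genes. All 5 endothelial and all 4 epicardial markers lay below 0, with median log2 fold changes of -0.18 and -0.09. Of the erythroid and of the neuronal markers 2 of 3 lay above 0, with medians of 0.16 and 0.34. No tested marker stood at 0 in either genotype. In whole hearts, a different number of cells of a type and a different amount of RNA per cell cannot be told apart. The part that these markers play in the levels of Mrpl and Mrps genes was not tested.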

How the data were processed

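RNA-seq of 3 mutant and 3 control hearts was analysed from 1 deposited table of 23290 entries, which has 2 value columns, 1 per genotype. The submitters' processing notes name TopHat2 2.0.8, Bowtie2 2.1.0.0, Cufflinks 2.1.1, Cuffdiff and mm10. FPKM values were computed by the authors, and the column headers give 1 value per genotype. The authors also deposited p-values, q-values, a test statistic and a log2 fold change. The last 2 columns were deposited by the authors as signed score values, with a placeholder for infinite ones. Normalisation, dispersion settings and strand are not given in the sources used here. Depth per library is unknown, so no counting interval is given.

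Log2 fold changes were computed from the deposited FPKM values. In 15301 entries a normal tail of the statistic, both sides, gave the deposited p within 2.82e-06, so the SE was taken as the size of the log2 fold change over that of the statistic. Benjamini-Hochberg adjustment of those p gave the deposited q within 1.87e-05. RefSeq's gene table (GRCm38.p6) named 98.7% of entries. Coordinates are RefSeq's, counted from 1. Named genes were the 4 highest and 4 lowest ratios, the 3 highest and 2 lowest levels of each subunit, the S18 paralogues, Mrps30, Mrps36, and members within 5 Mb of Casz1 or Nkx2-5. Of other lists, the rule took called genes, the 2 highest levels and the 2 widest differences. A gene that the rule names among the tRNA synthetases is not reported here. Genes outside this rule were chosen after their values were seen. The members, lists and motifs were chosen with earlier results of these data known. Steps were tested on simulated data. Alternatives covered thresholds, pseudocounts, scaling and the assignment to subunits. Python 3.11.15, numpy 2.4.6, pandas 2.3.3, scipy 1.17.1 and matplotlib 3.10.9 were used.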

Additional observations from a re-analysis of the deposited data

How the results depend on the processing

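The count of called members was 0 at q under 0.05 and remained 0 at q under 0.10, at q under 0.01, at an unadjusted p under 0.05 and with the adjustment restricted to entries that reach 1 FPKM in mutant or control hearts. With a lowest unadjusted p of 0.455 among members in the authors' Cuffdiff test, none of these settings could have given a call. The median log2 fold change of all members moved between -0.01 and 0.04 over 8 alternatives, that of the large subunit between -0.02 and 0.03 over 5, and that of the small subunit between 0.00 and 0.05 over 5. Scaling to the same FPKM sum turned the sign of the medians of all members (-0.01) and of the large subunit (-0.02). Adding the 2 joined entries left the median at 0.02, and leaving out the 12 members with a pseudogene copy or a shared locus gave 0.02; these 2 settings were chosen after seeing the data. For the named members all 87 values under a pseudocount of 0.1 or 1 FPKM or under centring stayed within the SE of the gene. No paired analysis was possible because the table has 1 pooled column per genotype and no column per heart, and for the same reason no heart could be left out. Depth per heart, which would set the precision, is unknown.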

Other observations

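Genes that maintain and transcribe mitochondrial DNA were not called in the authors' Cuffdiff test. Of 13 genes 12 were tested, 0 passed in either direction, 0 had an unadjusted p under 0.05, and the median log2 fold change was -0.04. Ssbp1, the single-stranded DNA-binding protein of mitochondria, read 18.1 FPKM in mutant and 16.2 FPKM in control hearts (log2 0.16, SE 0.334). Tfam, which packages mitochondrial DNA, read 15.8 FPKM in mutant and 15.4 FPKM in control hearts (log2 0.04, SE 0.281). Tfb2m, a factor of transcription start, read 7.21 FPKM in mutant and 7.999 FPKM in control hearts (log2 -0.15, SE 0.314). Polrmt, the mitochondrial RNA polymerase, has a status for too many fragments in the table and gave no usable value.

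Import, chaperone and matrix genes were not called either: 0 of 19 passed in either direction, 0 had an unadjusted p under 0.05 in the authors' Cuffdiff test, and the median log2 fold change was 0.04. Hspe1, a matrix co-chaperonin, read 316.8 FPKM in mutant and 284.8 FPKM in control hearts (log2 0.15, SE 0.309). Its partner Hspd1 read 308.7 FPKM in mutant and 327.9 FPKM in control hearts (log2 -0.09, SE 0.355). Both genes had an interval that crosses 0. Vdac3, an outer membrane channel, read 138.4 FPKM in mutant and 128.1 FPKM in control hearts (log2 0.11, SE 0.305). Summed over the list, the level was 2672 FPKM in mutant and 2652 FPKM in control hearts.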
